A study of Homo sapiens with 18 samples.

Results

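The comparison described here is the knockdown of the aryl hydrocarbon receptor gene AHR by the hairpin shAHR1 in U-87MG cells that express IL4I1. It rests on 6 of the 18 arrays of the series, chosen by their titles: 3 arrays labelled IL4I1_shAHR1 and 3 labelled IL4I1_shC. U-87MG is an established human glioblastoma line. All 6 samples carried a lentiviral pLX301-IL4I1 construct kept under puromycin selection. The IL4I1_shC cells also carried a non-targeting control hairpin (shCtrl, ULTRA-NT#4) and the IL4I1_shAHR1 cells the hairpin shAHR#1 (ULTRA-3234821), both from the shERWOOD UltramiR lentiviral collection. Virus was packaged in HEK293T cells, and the lines were grown for 120 hours before RNA was taken. Groups used for context were the same pair of hairpins in cells with the pLX301 control vector (C_shC and C_shAHR1) and IL4I1 cells with shAHR#2 (IL4I1_shAHR2), each with 3 arrays. By the labels, replicate arrays are biological and the lines stable; how many infections or clones stand behind each line is not said there, so the p-values measure the spread between these samples.

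AHR is a ligand-activated transcription factor of the bHLH-PAS family. It is held in the cytosol by chaperones, moves to the nucleus when a ligand binds, pairs with ARNT and binds DNA elements in front of detoxification enzymes and of its own feedback inhibitors. IL4I1 is a secreted L-amino acid oxidase, and some of the products it makes from aromatic amino acids are AHR ligands. The comparison asks which transcripts in IL4I1-expressing glioblastoma cells change when AHR is reduced.

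Array medians lay between 6.46 and 6.53 (log2) over all 18 arrays. Arrays within IL4I1_shC correlated between 0.929 and 0.942 and within IL4I1_shAHR1 between 0.931 and 0.936, while the 9 pairs across the groups lay between 0.910 and 0.932. No 2 arrays of the series were identical. Outside these groups, C_shC replicate 2 stood apart in relative log expression (interquartile range 0.529, against 0.319 to 0.472 on the other arrays). Of 13 measured glioma line markers, 6 lay above the median of 6.51 over all values in IL4I1_shC. VIM, CHI3L1 and CD44 were bright (12.04, 11.61 and 10.70 on the log2 scale), and EGFR, SLC1A3 and ALDH1L1 measured 7.81, 6.88 and 6.57. The others lay below the median, among them GFAP, OLIG2, FABP7 and NES (5.80, 6.36, 5.68 and 5.93). The summed level of 13 glioma markers was 13.24 to 13.32 in IL4I1_shC and 13.40 to 13.51 in IL4I1_shAHR1. Of the 13, 8 were higher without overlap, 0 were lower without overlap and 1, SOX9, was called higher. Over all genes tested, 9.06% were higher and 9.03% lower without overlap, and 0.972% were called higher. Markers of epithelium and embryonic kidney, the origin of the packaging line, had summed levels of 9.78 to 10.27 in IL4I1_shC and 9.84 to 10.15 in IL4I1_shAHR1. In bulk RNA, fewer cells of a type and less RNA per cell cannot be told apart.

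AHR itself was about 4 times lower under shAHR1. It measured 9.90, 9.84 and 10.33 on the log2 scale on the IL4I1_shC arrays and 8.04, 7.94 and 8.16 on the IL4I1_shAHR1 arrays, with no overlap. The means were 10.02 ± 0.27 and 8.05 ± 0.11 (SD, n = 3), a fall of 3.94-fold, or a log2 change of -1.98 ± 0.16 (SE; limma adjusted p = 1.7e-05). The transgene was level, with IL4I1 at 12.87, 12.83 and 12.96 in IL4I1_shC and at 13.01, 12.67 and 12.88 in IL4I1_shAHR1 (log2 change -0.04 ± 0.22, adjusted p = 0.97).

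Of 15529 genes tested, limma called 240 at an adjusted p under 0.05, which is 1.55% of the genes. The calls comprised 151 genes that rose (0.972%) and 89 that fell (0.573%), and 128 of the 240 changed by at least 1 on the log2 scale. The median change over all genes was -0.003. These 2 shares, 0.972% higher and 0.573% lower, are the background for every count of list members that rose or fell. Lists and members were chosen with earlier results of these data known, so a count above these shares is a description and not a test. The 3 arrays of one group did not overlap with those of the other for 2810 genes (18.1%), of which 1407 were higher (9.06%) and 1403 lower (9.03%) under shAHR1. The count leaned on single arrays: it was 82 without IL4I1_shC replicate 1, 99 without IL4I1_shAHR1 replicate 2, 119 without IL4I1_shC replicate 2, 122 and 144 without IL4I1_shAHR1 replicates 1 and 3, and 205 without IL4I1_shC replicate 3. A fit of the 6 arrays alone, with few degrees of freedom, called 17.

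**Figure D1:**
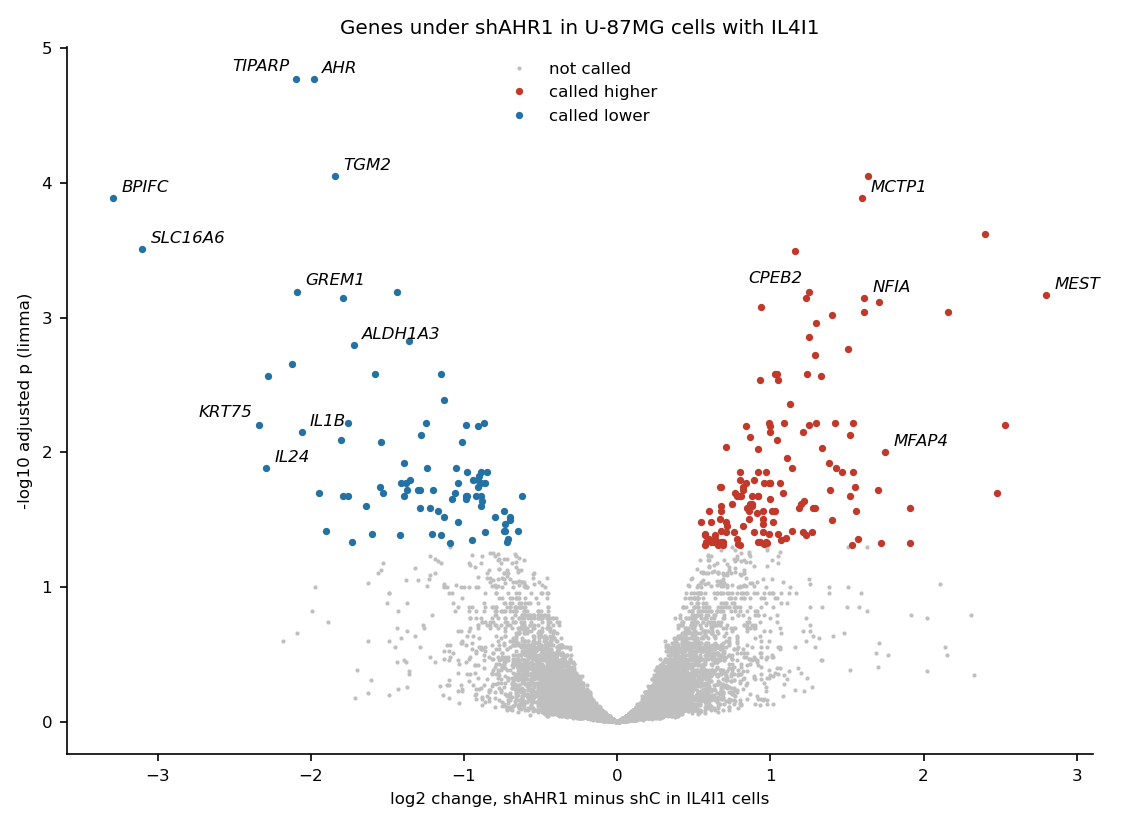
Log2 change of each of 15529 genes under shAHR1 in IL4I1 cells (horizontal) against the negative log10 of its limma adjusted p (vertical). Red points are the 151 genes that rose and blue points the 89 that fell; TIPARP and AHR stand highest on the left, and MCTP1 and MEST are among the labelled genes on the right.

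The classical AHR targets fell in part. Of 9 measured core targets, 4 fell and 0 rose, against 0.573% and 0.972% of all genes, and the median change of the 9 was -0.52. The members that fell were TIPARP, AHRR, CYP1B1 and ABCG2. TIPARP, an ADP-ribosyltransferase that restrains AHR, measured 9.42, 9.19 and 9.03 in IL4I1_shC and 7.21, 6.75 and 7.37 in IL4I1_shAHR1. That was a 4.30-fold fall (log2 change -2.10 ± 0.18, limma adjusted p = 1.7e-05). AHRR, the AHR repressor, went from 8.44, 8.35 and 7.95 to 7.00, 7.05 and 7.24, a 2.22-fold fall (-1.15 ± 0.17, adjusted p = 0.0026). CYP1B1, a cytochrome P450 that oxidises polycyclic hydrocarbons and oestrogens, went from 10.85, 10.97 and 10.72 to 9.63, 9.45 and 9.34 (-1.37 ± 0.28, adjusted p = 0.019). The drug efflux pump ABCG2 went from 6.27, 6.42 and 6.33 to 5.56, 4.89 and 4.84 (-1.25 ± 0.21, adjusted p = 0.0061). The groups were apart on all arrays for each of these 4 genes. When single arrays were left out, TIPARP, AHRR and ABCG2 stayed under the threshold in 6 of 6 fits and CYP1B1 in 2 of 6, with a highest adjusted p of 0.078. The fit of the 6 arrays alone called 2 of the 9, TIPARP and CYP1B1.

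The other 5 core targets overlapped between the groups. The cytochrome CYP1A2 averaged 7.57 ± 0.47 in IL4I1_shC and 7.04 ± 0.71 in IL4I1_shAHR1 (adjusted p = 0.62), so its spread was as large as its difference of -0.52 ± 0.35. The quinone reductase NQO1 changed by 0.13 ± 0.20 (adjusted p = 0.87) and the aldehyde dehydrogenase ALDH3A1, dim in both groups, by -0.03 ± 0.25 (adjusted p = 0.98). SLC7A5, a transporter of large neutral amino acids including tryptophan, changed by -0.24 ± 0.28, and the antioxidant regulator NFE2L2 by -0.04 ± 0.15 (adjusted p = 0.81 and 0.95). None of 11 measured partners and chaperones of AHR was called: ARNT changed by -0.24 (adjusted p = 0.54) and HSP90AA1, the chaperone, by 0.46 (adjusted p = 0.32), and the median of the list was 0.06. The arrays of 7 of the 11 did not overlap, 4 higher and 3 lower under shAHR1, against 18.1% of all genes.

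**Figure D2:**
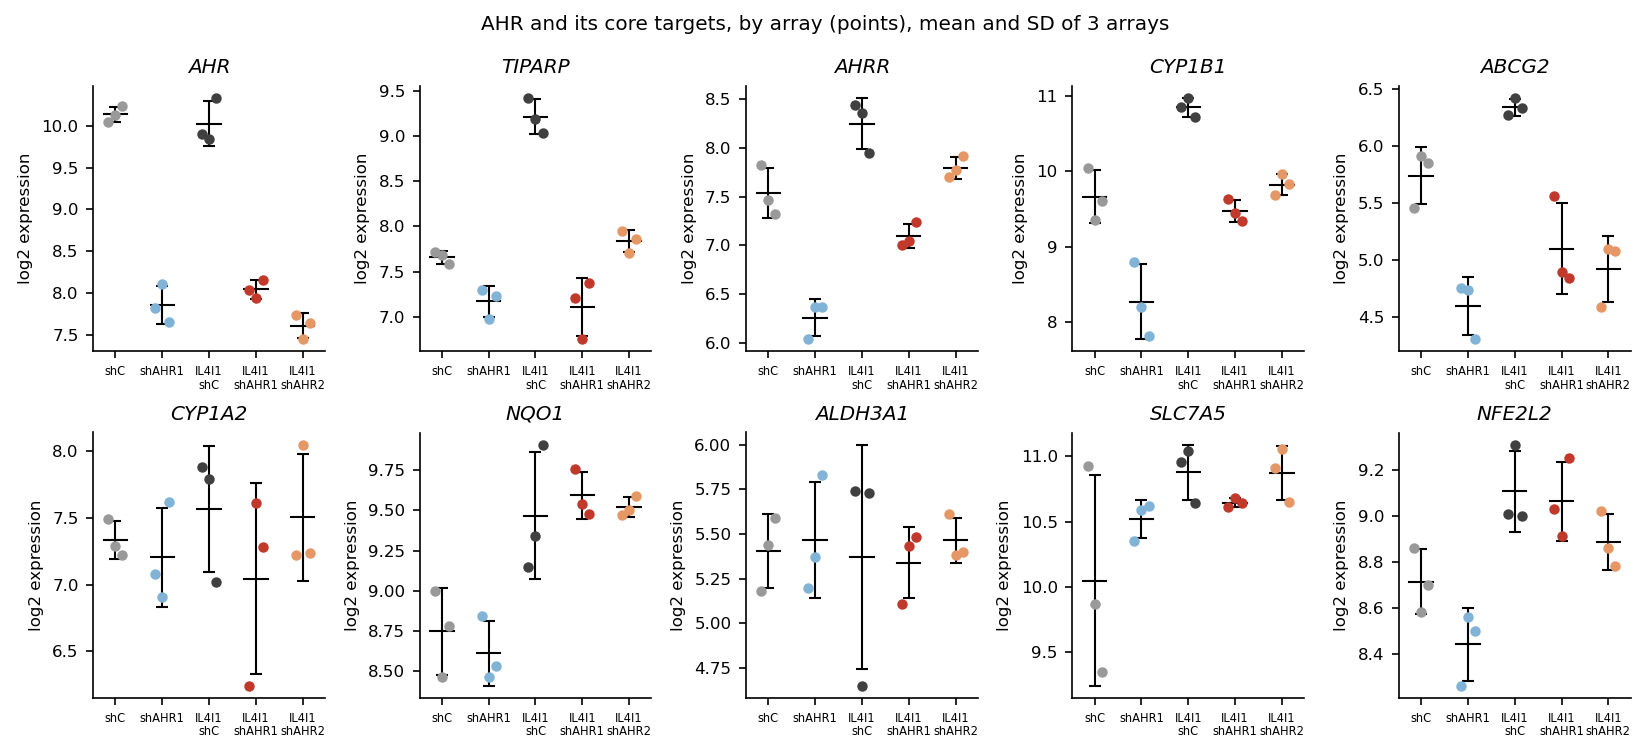
Log2 expression of AHR and its 9 measured core targets on each array (points), with the mean and SD of 3 arrays, in cells with the control vector (shC, shAHR1) and in IL4I1 cells (shC, shAHR1, shAHR2). Red IL4I1 shAHR1 points lie below all black IL4I1 shC points for AHR, TIPARP, AHRR, CYP1B1 and ABCG2, and overlap them for the other 5 genes.

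Promoter windows of 300 bases, 250 before and 50 after an annotated start, were read for the genes from RefSeq (GRCh38.p14) and searched on both strands for the invariant core of the AHR element, GCGTG. Genes with several starts have several windows, and not every gene has one: windows were found for 12265 of the 15529 genes tested, 69 of the 89 that fell, 118 of the 151 that rose and 7 of the 9 core targets. The core was present in 8130 of 17838 windows of the genes tested (45.6%), in 40 of 98 windows of genes that fell (40.8%) and in 82 of 194 windows of genes that rose (42.3%). Windows of the core targets held it in 10 of 15 (66.7%), and some of these windows, of ABCG2, overlap and share the same cores. Core targets that were not called held it too: every window of NQO1, SLC7A5 and NFE2L2 had a core, and that of CYP1A2 had none. Of the 20 largest named falls 15 had windows, of which 5 of 22 held it (22.7%), and of the 20 largest named rises 14 had windows, of which 9 of 25 held it (36.0%). No window was found for SLC16A6, TGM2, BPIFC, THBD and PI3 among these falls, or for CYP1B1 and ALDH3A1 among the core targets. The share among genes that fell was thus no higher than among all genes. A match is a description of the letters and not a binding site, and a window without a match says nothing about AHR binding elsewhere.

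The windows shown are those of 3 core targets that fell, of ALDH1A3, and of CXCL8 as a cytokine whose window holds no core. They are examples and do not show that the core goes with a fall. Letters in capitals mark the core on either strand. The TIPARP window lies at chr3:156674340-156674639 on the plus strand, with cores at -208 and -142 from the start, and is the only one of 3 TIPARP windows with a match. For AHRR the second of 2 windows is given, at chr5:322360-322659 on the plus strand, with cores at -247 and -42. ABCG2 lies on the minus strand, and its first window, at chr4:88158590-88158889, has cores at -127 and -49. Some of its other windows hold no core. ALDH1A3 has 1 window, at chr15:100879581-100879880 on the plus strand, with cores at -197 and -43. The CXCL8 window lies at chr4:73740319-73740618 on the plus strand.
TIPARP: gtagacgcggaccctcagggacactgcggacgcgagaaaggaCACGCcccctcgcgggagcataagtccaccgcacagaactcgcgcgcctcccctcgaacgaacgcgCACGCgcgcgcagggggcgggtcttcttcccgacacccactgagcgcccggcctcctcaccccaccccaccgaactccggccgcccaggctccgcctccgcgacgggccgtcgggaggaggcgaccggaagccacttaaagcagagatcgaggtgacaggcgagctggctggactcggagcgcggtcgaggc
AHRR: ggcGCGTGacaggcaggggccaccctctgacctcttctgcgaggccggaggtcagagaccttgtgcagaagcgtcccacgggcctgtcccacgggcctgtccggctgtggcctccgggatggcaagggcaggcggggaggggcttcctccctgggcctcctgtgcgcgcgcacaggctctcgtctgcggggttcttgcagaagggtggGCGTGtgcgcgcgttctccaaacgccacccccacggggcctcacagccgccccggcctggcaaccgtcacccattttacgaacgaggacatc
ABCG2: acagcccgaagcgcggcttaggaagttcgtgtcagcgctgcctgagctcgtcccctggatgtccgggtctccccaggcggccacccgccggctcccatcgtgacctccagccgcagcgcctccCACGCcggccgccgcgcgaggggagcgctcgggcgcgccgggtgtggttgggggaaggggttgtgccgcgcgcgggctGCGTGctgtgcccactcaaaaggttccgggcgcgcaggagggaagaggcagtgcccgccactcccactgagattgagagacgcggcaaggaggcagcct
ALDH1A3: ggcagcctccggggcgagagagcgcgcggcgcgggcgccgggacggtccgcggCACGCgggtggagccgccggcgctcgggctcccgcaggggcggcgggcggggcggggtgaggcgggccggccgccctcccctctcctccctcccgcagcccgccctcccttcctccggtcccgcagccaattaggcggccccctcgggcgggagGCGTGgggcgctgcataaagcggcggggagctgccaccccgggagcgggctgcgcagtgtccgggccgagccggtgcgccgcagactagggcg
CXCL8: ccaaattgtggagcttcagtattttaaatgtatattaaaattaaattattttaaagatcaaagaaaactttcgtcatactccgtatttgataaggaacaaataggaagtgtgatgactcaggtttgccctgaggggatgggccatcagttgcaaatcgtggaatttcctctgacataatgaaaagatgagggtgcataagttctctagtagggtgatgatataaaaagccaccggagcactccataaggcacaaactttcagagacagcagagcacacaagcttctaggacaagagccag

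Among 29 measured members of a wider list of AHR-responsive genes, 7 fell and 1 rose, against 0.573% and 0.972% of all genes, and the median change was -0.45. The fit of the 6 arrays alone called 1 of them, SLC16A6. The largest fall was that of SLC16A6, a member of the monocarboxylate transporter family. SLC16A6 measured 11.01, 10.79 and 10.19 in IL4I1_shC and 7.86, 7.08 and 7.74 in IL4I1_shAHR1, an 8.58-fold fall (log2 change -3.10 ± 0.35, limma adjusted p = 0.00031). GREM1, a secreted antagonist of bone morphogenetic proteins, went from 10.26, 10.16 and 10.93 to 8.66, 7.81 and 8.59 (-2.09 ± 0.26, adjusted p = 0.00064). ALDH1A3, which makes retinoic acid from retinal, went from 11.01, 10.78 and 10.73 to 9.38, 8.48 and 9.49 (-1.72 ± 0.24, adjusted p = 0.0016). All 3 genes stayed under the threshold in 6 of 6 fits without 1 array.

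The other members of that list that fell were IL1B, PTGS2 and CXCL8, described with the cytokines, and the EGF receptor ligand EREG. EREG was lower on every knockdown array (10.95, 11.26 and 11.52 against 12.15, 12.05 and 12.18), with a log2 change of -0.88 ± 0.18 (limma adjusted p = 0.023), and held in 1 of 6 fits without 1 array. The member that rose was LPAR1, a receptor for lysophosphatidic acid, at 6.95, 7.16 and 7.00 in IL4I1_shC and 8.06, 8.03 and 8.39 in IL4I1_shAHR1 (1.13 ± 0.18, adjusted p = 0.0044). Textbook members such as VEGFA, MYC, CDKN1A and HMOX1 changed by 0.06, 0.24, -0.06 and -0.32 and were not called (adjusted p = 0.96, 0.64, 0.95 and 0.77).

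Inflammatory cytokines and chemokines were lower under shAHR1. Of 29 measured members of a list of cytokines and NF-kB genes, 7 fell and 0 rose, against 0.573% and 0.972% of all genes. IL1B, CXCL8 and PTGS2 are counted both here and in the wider AHR-responsive list. The median change of the list was -0.91, and 19 of the 29 were lower on all 3 knockdown arrays than on all 3 control arrays, against 9.03% of all genes. IL1B, a central inflammatory cytokine, measured 12.27, 11.68 and 11.66 in IL4I1_shC and 9.86, 9.09 and 10.48 in IL4I1_shAHR1. Its fall of 4.17-fold (log2 change -2.06 ± 0.35, limma adjusted p = 0.0071) was the only one of the 7 to stay under the threshold in 6 of 6 fits without 1 array.

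IL24, a cytokine of the IL-10 family, went from 10.82, 10.50 and 10.07 to 8.21, 7.54 and 8.76 (-2.29 ± 0.43, limma adjusted p = 0.013). PTGS2, the inducible cyclooxygenase, went from 11.75, 11.12 and 10.82 to 9.05, 9.08 and 9.84 (-1.90 ± 0.43, adjusted p = 0.038). The neutrophil chemokine CXCL8 went from 12.04, 11.60 and 11.48 to 9.46, 9.72 and 10.65 (-1.76 ± 0.36, adjusted p = 0.021). In each of these genes replicate 3 was the highest of the knockdown arrays, and it still lay below every control array. A related chemokine, CXCL3, fell by 1.60 ± 0.37 on the log2 scale and the adhesion molecule VCAM1 by 0.98 ± 0.20 (adjusted p = 0.040 and 0.021). Without 1 array, IL24 held in 4 of 6 fits, and PTGS2, CXCL8, CXCL3 and VCAM1 in 2 each. The alarmin IL33 fell from 5.61 ± 0.79 to 3.65 ± 0.29 (adjusted p = 0.020) and held in 3 of 6 fits. No size is given for it, because group means of 4.51 or less, the lowest 1% of all group means, are too dim for one.

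Outside that list, the interleukin-1 receptor antagonist IL1RN also fell. IL1RN measured 10.04, 9.73 and 9.05 in IL4I1_shC and 7.69, 7.06 and 7.71 in IL4I1_shAHR1, a 4.36-fold fall (-2.12 ± 0.31, limma adjusted p = 0.0022), and held in 6 of 6 fits without 1 array. Several cytokines missed the threshold while their arrays did not overlap: LIF differed by -1.63, IL11 by -1.56, IL1A by -1.38 and IL6 by -1.27 (adjusted p = 0.093, 0.078, 0.088 and 0.19). The NF-kB subunits and feedback inhibitors moved little, with NFKB1 at -0.21, NFKBIA at -0.24 and TNFAIP3 at 0.10 (adjusted p = 0.69, 0.63 and 0.92).

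The cytokine calls depended on single arrays. Without IL4I1_shAHR1 replicate 2 or without IL4I1_shC replicate 1, IL1B was the only member of the list called, and the fit of the 6 arrays alone called 0 of the 29. In the fits without 1 array the median of the list stayed between -1.13 and -0.66. Leukocyte markers were mixed, with 6 of 10 measured markers changed by less than 0 and 4 by more than 0. Their summed level was 10.14 to 10.33 in IL4I1_shC and 9.70 to 9.98 in IL4I1_shAHR1. The brightest of them, ITGAX, averaged 8.87 and 8.04. Of the 10 leukocyte markers 0 were called and 4 were lower without overlap, against 9.03% of all genes. ITGAM differed by -1.17 and ITGAX by -0.84 (limma adjusted p = 0.064 and 0.074), while the pan-leukocyte marker PTPRC stood at 6.28 and 6.50 (adjusted p = 0.85). Their part in the result was not tested.

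**Figure D3:**
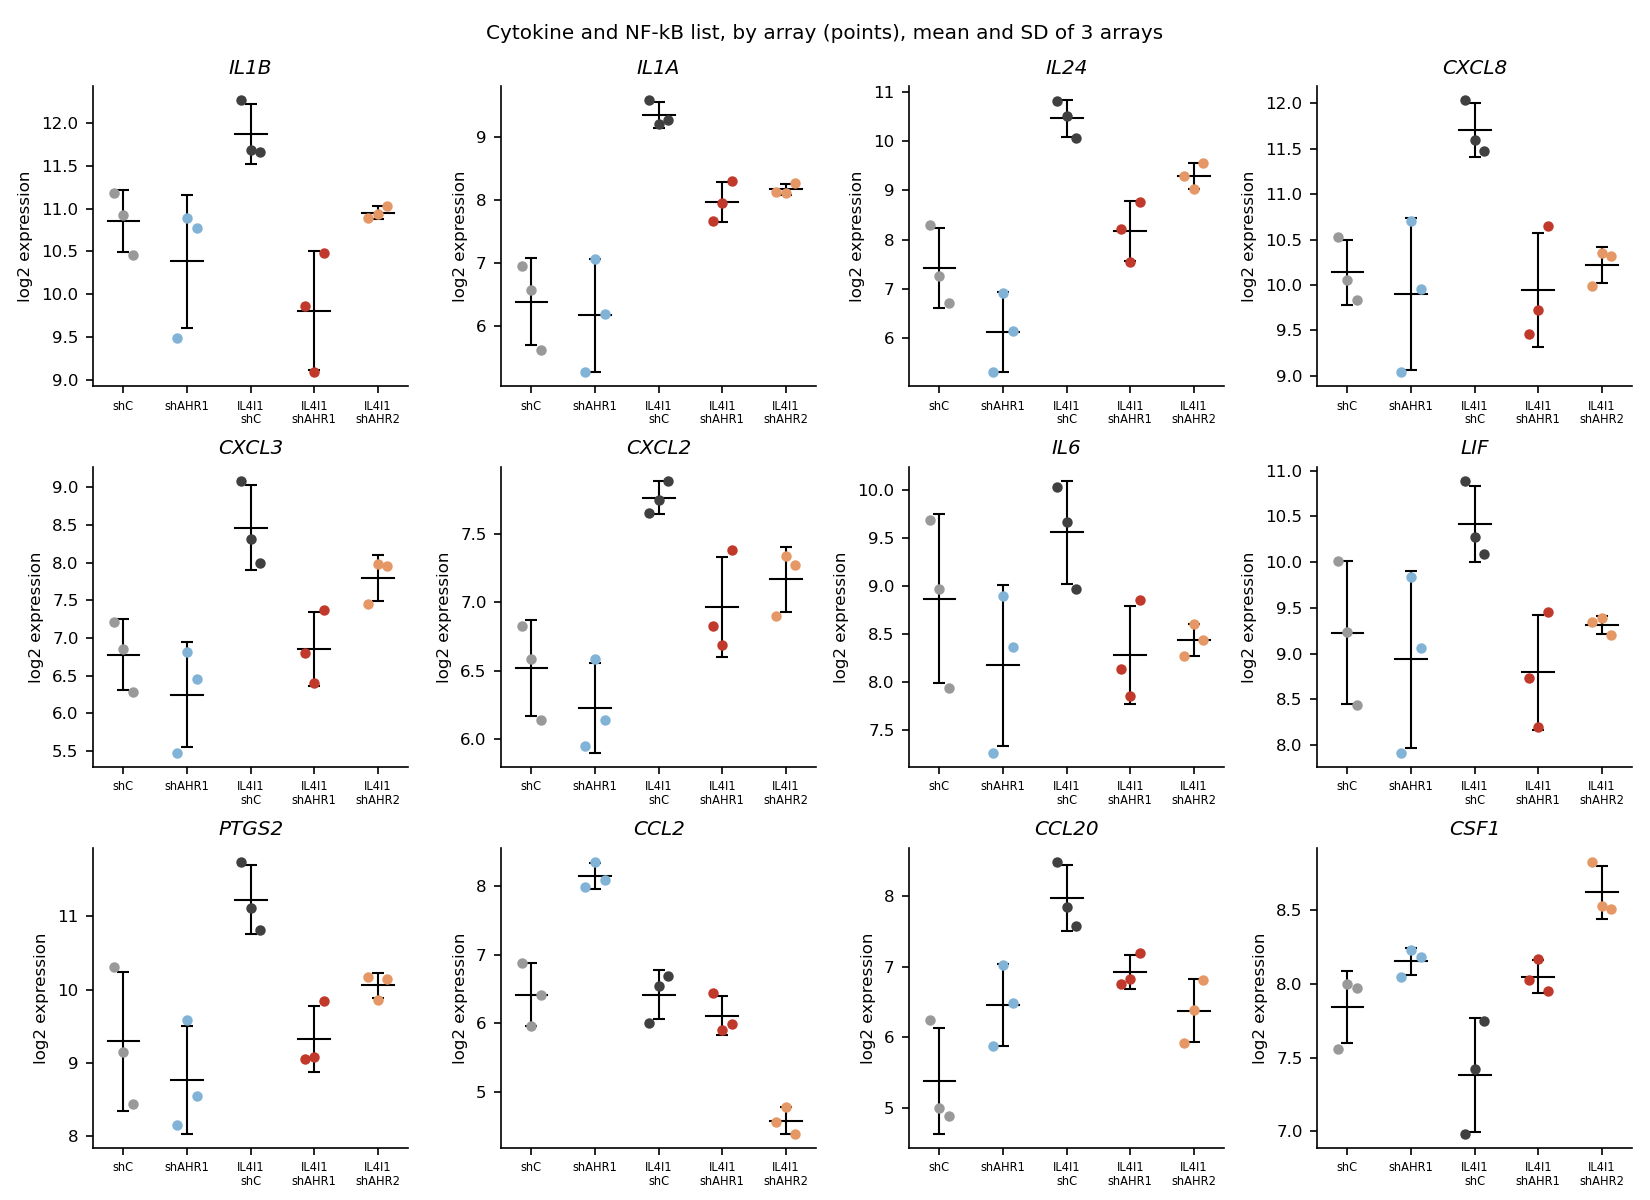
Log2 expression of 12 members of the cytokine and NF-kB list on each array (points), with the mean and SD of 3 arrays, in the same 5 groups. The red IL4I1 shAHR1 points lie below all black IL4I1 shC points for 10 of the genes; CCL2 overlaps, and CSF1 is higher (0.67, adjusted p = 0.094).

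The other large falls included the hair keratins KRT75 and KRT33B. KRT75 measured 8.15, 8.15 and 6.96 in IL4I1_shC and 5.18, 6.03 and 5.03 in IL4I1_shAHR1 (log2 change -2.34 ± 0.39, limma adjusted p = 0.0063), and KRT33B measured 9.35, 7.83 and 7.83 against 6.27, 5.68 and 6.22 (-2.28 ± 0.35, adjusted p = 0.0027). The other 8 measured keratins were not called, so 2 of 10 fell, against 0.573% of all genes. The median over all 10 was -0.02. BPIFC, of the BPI family of lipid-binding proteins, fell from 7.06, 6.39 and 6.40 to 3.88, 3.02 and 3.09 (adjusted p = 0.00013); its knockdown mean was in the dimmest 1% of group means.

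TGM2, the tissue transglutaminase that cross-links proteins, measured 11.84, 11.57 and 11.58 in IL4I1_shC and 9.88, 9.46 and 10.12 in IL4I1_shAHR1, a 3.59-fold fall (-1.84 ± 0.18, limma adjusted p = 8.9e-05). The membrane protein TMEM255B fell by 1.79 ± 0.23 (adjusted p = 0.00072). Thrombomodulin (THBD), an anticoagulant receptor, fell by 1.76 ± 0.29 and tissue factor (F3), which starts coagulation, by 1.36 ± 0.19 (adjusted p = 0.0061 and 0.0015), both in 6 of 6 fits without 1 array. The elastase inhibitor elafin (PI3) fell by 1.73 ± 0.41 (adjusted p = 0.046). Its control arrays were widely spread at 10.38, 9.35 and 8.27, and it held in 1 of 6 fits. Carboxypeptidase M (CPM) fell by 1.64 ± 0.35 and PLEKHG4B by 1.58 ± 0.24 (adjusted p = 0.025 and 0.0026); CPM held in 2 of 6 fits and PLEKHG4B in 6.

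Genes of the extracellular matrix changed in both directions. Of 18 collagens 2 rose and 1 fell, against 0.972% and 0.573% of all genes, with a median of -0.01. COL6A1 rose from 8.70, 9.15 and 9.28 to 10.26, 9.85 and 10.02 (log2 change 1.00 ± 0.17, limma adjusted p = 0.0070), COL15A1 rose by 0.99 ± 0.19 (adjusted p = 0.017), and COL5A2 fell by 0.99 ± 0.17 (adjusted p = 0.0063). COL15A1 held in 1 of 6 fits without 1 array. Of 29 elastic fibre and matrix glycoprotein genes 3 rose and 0 fell, against the same shares, with a median of 0.14. MFAP4, a microfibril-associated glycoprotein, rose from 8.63, 9.32 and 9.84 to 11.09, 11.32 and 10.63 (1.75 ± 0.31, adjusted p = 0.0099), and held in 4 of 6 fits. OLFML2A, an olfactomedin-like matrix protein, rose from 6.16, 6.35 and 6.32 to 8.23, 7.81 and 7.62 (1.61 ± 0.21, adjusted p = 0.00091). The elastin cross-linking enzyme LOXL1 rose by 0.67 ± 0.15 (adjusted p = 0.031) and held in 2 of 6 fits.

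Of 19 hyaluronan and proteoglycan genes 2 fell and 0 rose, against 0.573% and 0.972% of all genes, with a median of -0.13. The hyaluronan synthase HAS2 fell by 1.55 ± 0.31 and CEMIP, which breaks hyaluronan down, by 1.39 ± 0.26 (limma adjusted p = 0.018 and 0.012); HAS2 held in 2 and CEMIP in 4 of 6 fits without 1 array. Of 23 matrix proteases and inhibitors, 2 fell (the protease ADAMTS6 and PI3) and 1 rose, against the same shares, with a median of -0.14. ADAMTS6 measured 8.15, 7.90 and 7.70 in IL4I1_shC and 6.26, 6.42 and 6.75 in IL4I1_shAHR1 (-1.44 ± 0.18, adjusted p = 0.00064). The protease inhibitor SERPINE2 rose by 0.84 ± 0.17 (adjusted p = 0.017) and held in 3 of 6 fits. The abundant gelatinase gene MMP2 and its partner MMP14 changed by -0.14 and -0.33 (adjusted p = 0.75 and 0.52).

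MEST, an imprinted gene of the hydrolase fold family, rose from 3.98, 3.15 and 4.93 to 7.03, 6.69 and 6.74 (limma adjusted p = 0.00068), from a dim control mean for which no size is given. NFIA, a transcription factor of gliogenesis, rose 3.06-fold from 5.07, 5.70 and 5.22 to 7.27, 6.89 and 6.68 (1.61 ± 0.21, adjusted p = 0.00072). MCTP1, a calcium-binding C2 domain protein of membranes, rose 3.03-fold from 6.99, 6.77 and 7.18 to 8.48, 8.40 and 8.86 (1.60 ± 0.17, adjusted p = 0.00013). In all 3 genes every knockdown array lay above every control array.

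SOX9, a developmental transcription factor, rose 2.52-fold from 5.73, 5.86 and 6.61 to 7.43, 7.31 and 7.46 (1.33 ± 0.20, limma adjusted p = 0.0027). With NFIA and TOX it made up the 3 of 30 developmental transcription factors that rose, where 0 fell and the median was 0.24, against 0.972% of all genes that rose. TOX rose from 3.57 ± 0.23 to 4.77 ± 0.25 (adjusted p = 0.024), and its control mean was too dim for a size. STK40, a pseudokinase, rose by 1.51 ± 0.21, the lipid synthesis enzyme CDS1 by 1.42 ± 0.24, the secernin SCRN1 by 1.30 ± 0.18 and the ubiquitin-conjugating enzyme UBE2H by 1.25 ± 0.21 (adjusted p = 0.0017, 0.0061, 0.0011 and 0.0063). The kinesin motor KIF5C and the RNA-binding protein CPEB2 each rose by 1.25 (SE 0.17 and 0.15, adjusted p = 0.0014 and 0.00064). The nucleotide-sugar transporter SLC35D2 rose by 1.23 ± 0.16 and INSYN2B by 1.29 ± 0.19 (adjusted p = 0.00072 and 0.0019). SOX9 and the other 8 genes held in 6 of 6 fits without 1 array, and TOX in 2.

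IFITM2, an interferon-induced antiviral protein, rose by 1.52 ± 0.26 (limma adjusted p = 0.0074). It was the only one of 27 interferon-induced genes called, against 0.972% of all genes that rose. The median of that list was -0.06. KCTD4 rose by 1.54 ± 0.29 and held in 4 of 6 fits without 1 array, the plasma glycoprotein APOH rose by 1.39 ± 0.28 and held in 2, and PTCHD4 rose by 1.40 ± 0.31 and held in 1 (adjusted p = 0.014, 0.019 and 0.032). The imprinted, retrotransposon-derived PEG10 rose by 1.23 ± 0.29 (adjusted p = 0.041) and held in 0 of 6 fits, with adjusted p up to 0.17.

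Smooth-muscle type contractile genes contributed 2 rises among 16 measured, with 0 falls and a median of 0.24, against 0.972% of all genes that rose. ACTA2, smooth muscle actin, rose from 7.03, 7.07 and 7.13 to 7.94, 7.97 and 8.14, a narrow spread in both groups (log2 change 0.94 ± 0.12, limma adjusted p = 0.00083). The actin-bundling protein palladin (PALLD) rose by 0.69 ± 0.16 (adjusted p = 0.046) and held in 0 of 6 fits without 1 array. Of 20 YAP target genes 2 rose and 1, F3, fell, against 0.972% and 0.573% of all genes, with a median of 0.14. FJX1 and CCN2 rose by 0.97 ± 0.18 and 1.10 ± 0.26 (limma adjusted p = 0.014 and 0.043). CCN2 held in 0 of 6 fits and FJX1 in 5. In the TGF-beta and BMP list 1 of 26 genes rose and 1, GREM1, fell, against the same shares. The BMP receptor BMPR2 rose by 0.80 ± 0.16 (limma adjusted p = 0.021) and also held in 0 of 6 fits.

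Growth factor genes split evenly, with 2 rises and 2 falls among 36 measured, against 0.972% and 0.573% of all genes, and a median of 0.11. FGF2, a mitogen of glial cells, measured 11.38, 10.84 and 10.95 in IL4I1_shC and 9.91, 9.83 and 10.04 in IL4I1_shAHR1 (log2 change -1.13 ± 0.18, limma adjusted p = 0.0041), and EREG fell as given above. IGFBP5, an IGF-binding protein, and ANGPT1, the TIE2 ligand, rose from dim control means of 4.30 ± 0.34 and 4.28 ± 0.68 to 5.73 ± 0.46 and 5.80 ± 0.35 (adjusted p = 0.013 and 0.021). Without 1 array, IGFBP5 held in 4 and ANGPT1 in 3 of 6 fits. Among 34 neuronal adhesion and guidance genes the semaphorin receptor PLXNA2 alone was called, with a rise of 0.86 ± 0.19 (limma adjusted p = 0.031). The list had a median of 0.20, and 0.972% of all genes rose. PLXNA2 held in 1 of 6 fits without 1 array.

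Metabolic genes gave few calls. QPRT, which carries the tryptophan product quinolinate into NAD synthesis, rose from 8.48, 8.56 and 8.69 to 9.80, 9.31 and 9.62 (log2 change 1.00 ± 0.17, limma adjusted p = 0.0064). It was the only one of 20 tryptophan and aromatic amino acid genes called, against 0.972% of all genes that rose. Of 25 energy-sensing and mitochondrial redox genes 2 rose and 0 fell, against 0.972% and 0.573% of all genes. PRKAA1, the AMPK catalytic subunit alpha 1, rose from 7.23, 7.15 and 7.73 to 8.83, 8.58 and 8.41 (1.24 ± 0.19, adjusted p = 0.0026), and the mitochondrial transhydrogenase NNT rose by 1.05 ± 0.16 (adjusted p = 0.0029). In the cholesterol list 1 of 18 genes fell and 0 rose, against 0.573% and 0.972% of all genes, with a median of -0.19. That gene, INSIG1, which holds back sterol synthesis, fell by 0.90 ± 0.17 (limma adjusted p = 0.015) and held in 4 of 6 fits without 1 array.

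Several further lists held 0 genes called by limma. These were 32 genes of the ATF4 stress response (median change 0.01), 20 NRF2 targets (0.12), 31 hypoxia and glycolysis genes, 23 p53 targets (0.14) and 21 antigen presentation and checkpoint genes (-0.07). The 24 DNA replication genes (0.18), 30 mitosis genes (-0.32) and 12 cell cycle brakes (0.05) also had 0 calls. Of these, 17 replication and 26 mitosis genes lay below the overall median in both groups. The mitosis genes CCNB1, CDK1 and CCNA2 had standard errors of 0.66, 0.64 and 0.70, against a median of 0.22 over all genes. The lack of calls among them therefore says little. Against 18.1% of all genes, the arrays did not overlap for 5 of the ATF4 genes, 5 of the NRF2 targets, 1 of the hypoxia genes, 9 of the p53 targets and 2 of the antigen presentation genes. The same held for 4 of the DNA replication genes, 1 of the mitosis genes and 2 of the brakes. Reference genes and ribosomal protein genes had medians of 0.02 each.

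**Figure D4:**
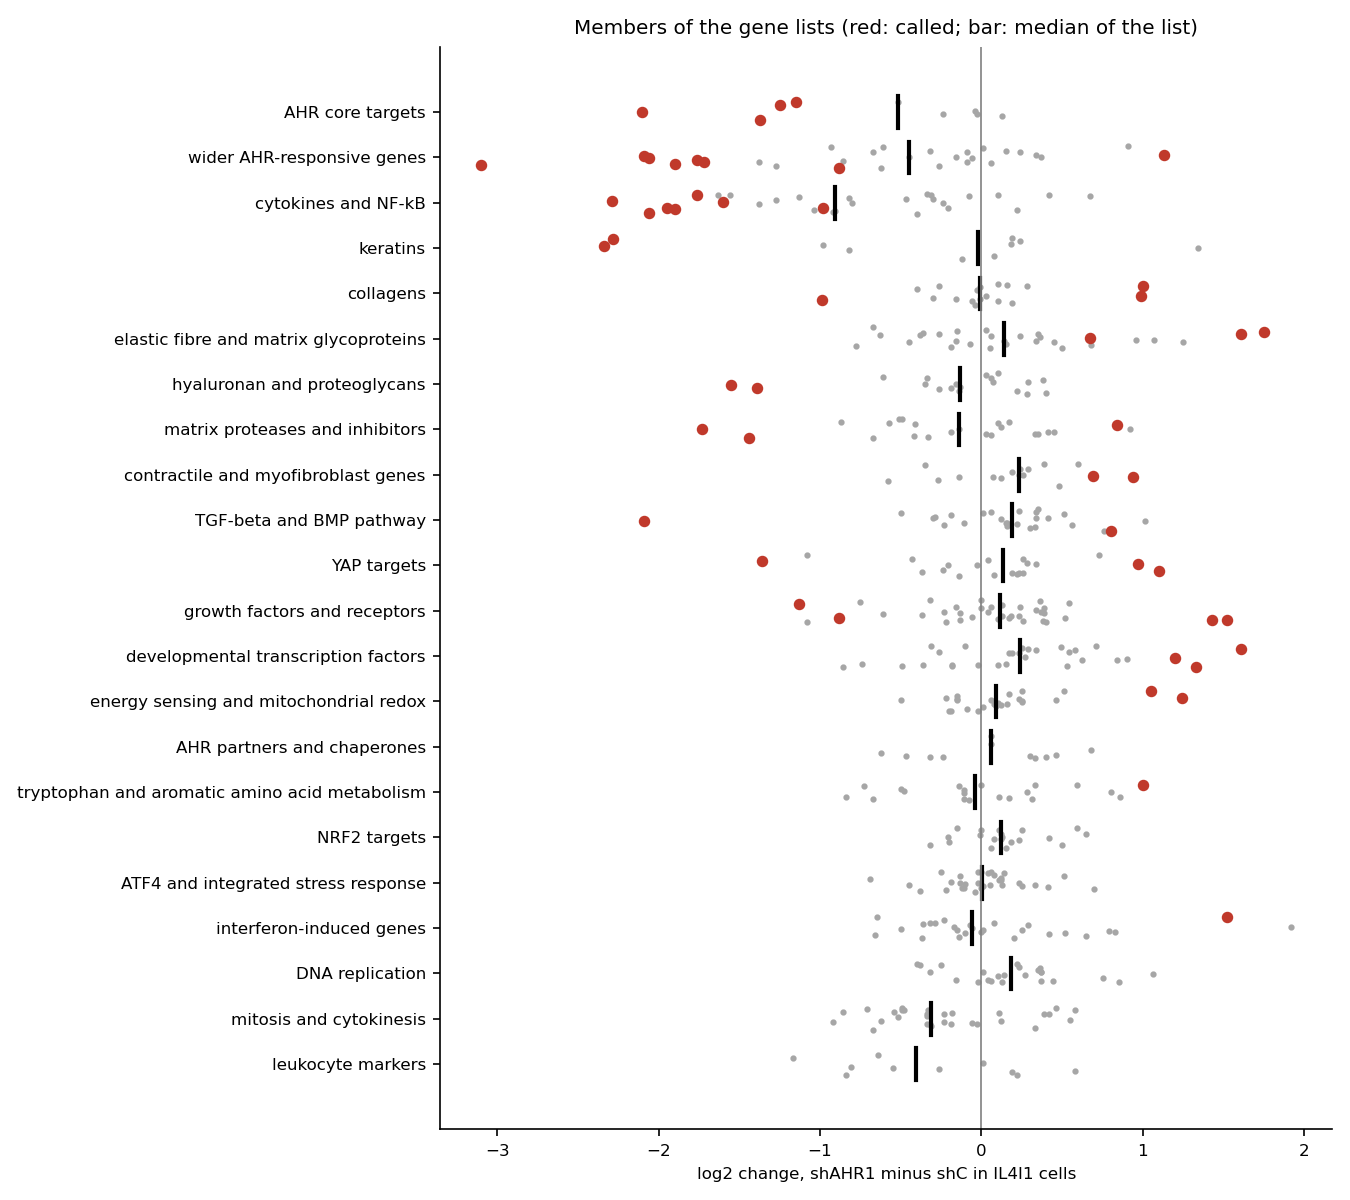
Log2 change under shAHR1 in IL4I1 cells (horizontal) of each measured member of 22 gene lists (rows; vertical jitter carries no value), with called genes in red and the median of each list as a black bar. The bars of the cytokine list (-0.91), the core targets (-0.52) and the wider AHR list (-0.45) lie furthest to the left.

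The same hairpin was compared in cells with the control vector, whose group means share no arrays with those of the IL4I1 comparison. There limma called 63 genes (0.406%), 46 higher and 17 lower, and 33 without C_shC replicate 2, 25 without C_shAHR1 replicate 1 and 22 without C_shAHR1 replicate 3. Both comparisons called 30 genes, which is 12.5% of the 240 and 47.6% of the 63. The 2 comparisons use the same spread for each gene, fitted over all 18 arrays, so their calls are not independent. All 30 had the same direction, with 21 higher and 9 lower. Of the 240 genes 223 (92.9%) had the same sign without IL4I1, against 59.2% of all genes. The genes that rose with IL4I1 had a median change of 0.99 there and of 0.54 without it; those that fell had medians of -1.17 and -0.60. The medians with IL4I1 come from the comparison that chose the genes, and those without it do not.

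The shared genes include AHR, AHRR, CYP1B1, ABCG2 and GREM1 among the falls, and PRKAA1, QPRT, NNT, ACTA2, SCRN1 and STK40 among the rises. AHR fell by 2.27 without IL4I1 (limma adjusted p = 3.2e-06). AHRR changed by -1.15 with and -1.27 without IL4I1, CYP1B1 by -1.37 and -1.40, ABCG2 by -1.25 and -1.14, and NNT by 1.05 in both. For PRKAA1 the changes were 1.24 and 1.19.

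Other genes had a larger change with IL4I1 than without, yet the difference was not called for any. TIPARP changed by -2.10 with IL4I1 and by -0.49 without it (adjusted p without = 0.29), a difference of -1.61 ± 0.25 with an interaction adjusted p of 0.077. On the arrays without IL4I1 it measured 7.72, 7.68 and 7.58 in C_shC and 7.30, 6.98 and 7.23 in C_shAHR1, so the knockdown arrays of both backgrounds overlapped while the control arrays did not. ALDH1A3 changed by -1.72 and -0.02 (interaction adjusted p = 0.19), KRT33B by -2.28 and 0.13 (0.19), MCTP1 by 1.60 and 0.31 (0.19) and IL1B by -2.06 and -0.47 (0.71). The median change of the cytokine list was -0.91 with and -0.15 without IL4I1.

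Over all genes the interaction of shAHR1 with IL4I1 had 0 calls in limma (0%), with a lowest adjusted p of 0.077 and an unadjusted p under 0.05 in 901 genes (5.8% of those tested). With a trended, robust prior 4 genes were called, namely TIPARP, CCL2, SLC2A9 and MCTP1, and without dim genes the first 3 of them. Without C_shC replicate 1, 2 or 3 the counts were 3, 1 and 1, and they were 0 in the fits of the 12 arrays alone, with the replicate block, with quantile normalization and without any other array. CCL2 and SLC2A9 were chosen after their values were seen. CCL2, a monocyte chemokine, measured 6.01, 6.55 and 6.69 in IL4I1_shC and 6.44, 5.91 and 5.99 in IL4I1_shAHR1, whereas without IL4I1 it measured 6.88, 5.96 and 6.42 in C_shC and 7.99, 8.36 and 8.09 in C_shAHR1. The changes were -0.30 and 1.73, and the difference of -2.03 ± 0.34 had an adjusted p of 0.091.

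**Figure D5:**
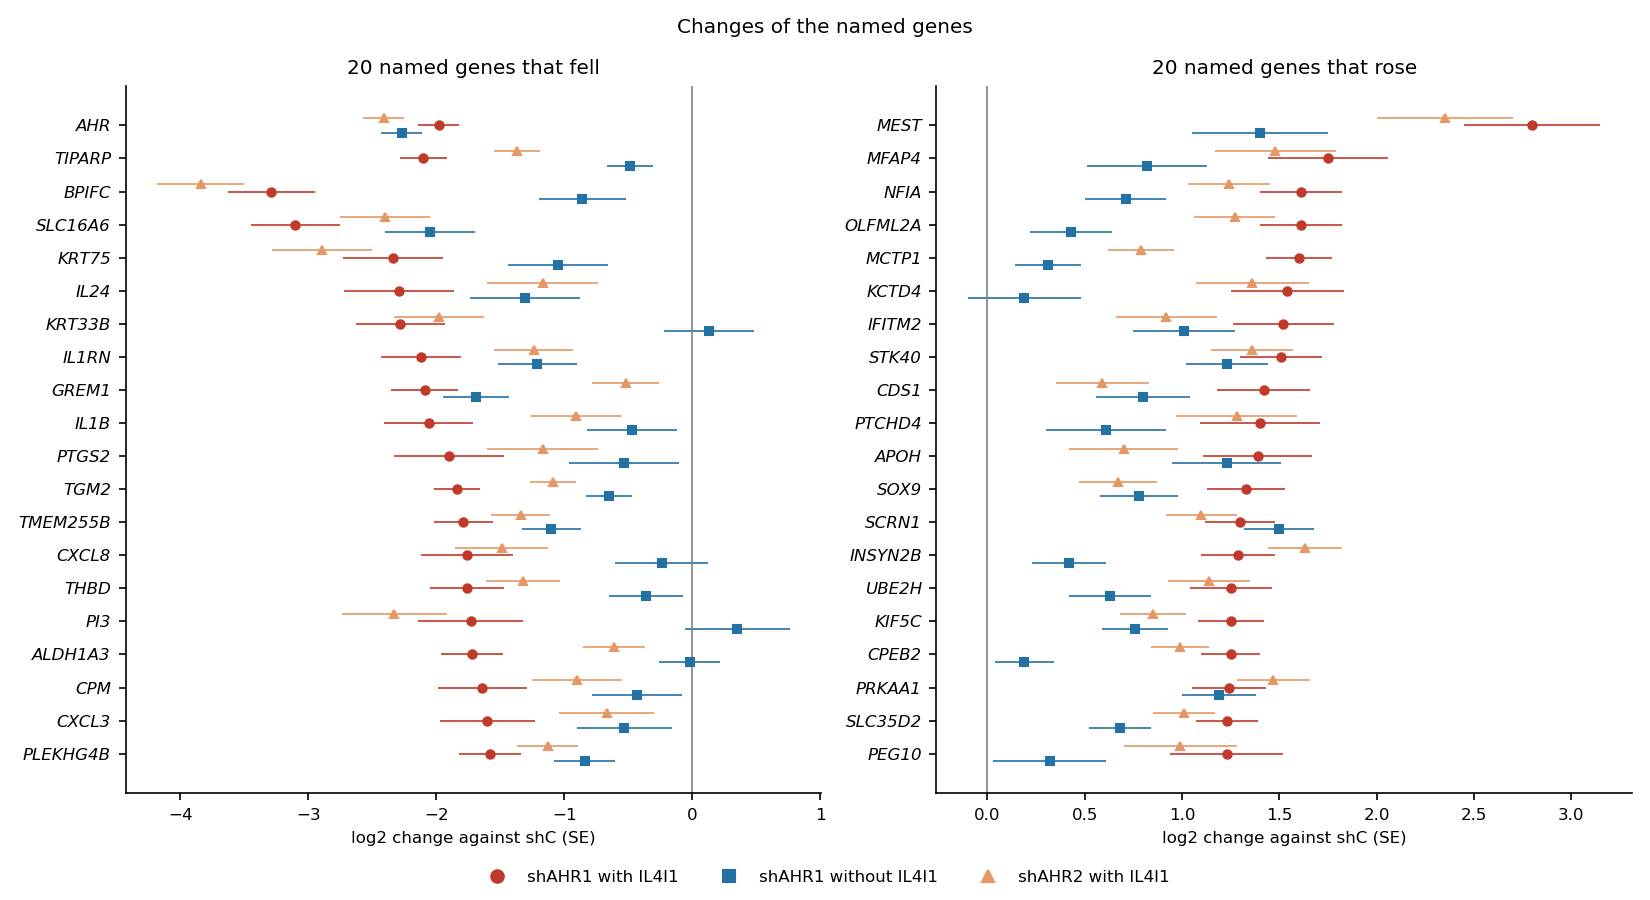
Log2 change against the matching shC group, with its SE, of the 20 named genes that fell most (left) and the 20 that rose most (right) under shAHR1 in IL4I1 cells. Red circles are shAHR1 with IL4I1, blue squares shAHR1 without IL4I1 and orange triangles shAHR2 with IL4I1, which shares its 3 control arrays with the red circles; blue squares of KRT33B (0.13) and ALDH1A3 (-0.02) lie near 0.

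The second hairpin, shAHR2, was compared with the same 3 IL4I1_shC arrays, so values of both hairpins are given side by side and a likeness between them is no separate result. Limma called 195 genes for shAHR2 (1.26%), and 97, 81 and 75 without IL4I1_shAHR2 replicates 1, 2 and 3, 78 and 90 without IL4I1_shC replicates 1 and 2, and 39 in a fit of its 6 arrays. AHR changed by -1.98 under shAHR1 and by -2.41 under shAHR2. For SLC16A6 the changes were -3.10 and -2.40, for TGM2 -1.84 and -1.09, for TIPARP -2.10 and -1.37, for ABCG2 -1.25 and -1.42, for KRT75 -2.34 and -2.89, for ACTA2 0.94 and 1.01 and for PRKAA1 1.24 and 1.47. IL1B changed by -2.06 and -0.91 and IL24 by -2.29 and -1.17, with shAHR2 adjusted p of 0.28 and 0.23. AHRR changed by -1.15 and -0.45 and CYP1B1 by -1.37 and -1.02 (shAHR2 adjusted p = 0.27 and 0.088). Further falls were not called under shAHR2. GREM1 changed by -2.09 and -0.52, ALDH1A3 by -1.72 and -0.61, CXCL3 by -1.60 and -0.67 and CEMIP by -1.39 and -0.35 (shAHR2 limma adjusted p = 0.48, 0.30, 0.55 and 0.70). COL15A1 changed by 0.99 and -0.20 (shAHR2 adjusted p = 0.80). The median change of the cytokine list was -0.91 and -0.59, and that of the core targets -0.52 and -0.22.

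The direct comparison of the hairpins, which uses no control array, had 0 calls in limma (0%). The lowest adjusted p was 0.057, and 1131 genes (7.3%) had an unadjusted p under 0.05. That count was sensitive to the processing: 18 genes were called with a trended, robust prior, 29 without dim genes, 13 with quantile normalization, 14 with arrays centred on their medians and 2 with the replicate block. The 2 genes, also called under the other 4 settings, were GREM1 and COL15A1. GREM1 measured 8.66, 7.81 and 8.59 under shAHR1 and 9.76, 9.94 and 10.10 under shAHR2, a difference of -1.58 ± 0.26. COL15A1 measured 8.30, 8.22 and 8.18 under shAHR1 and 7.18, 6.97 and 7.00 under shAHR2, a difference of 1.19 ± 0.19. Both had an adjusted p of 0.057, and AHR itself differed by 0.43 ± 0.16 (adjusted p = 0.55).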

How the data were processed

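Total RNA of U-87MG cells was labelled with biotin and measured on 1-colour Affymetrix arrays, per the labels. Values were deposited as 1 log2 expression level per probe set, which the authors made with oligo and RMA, per the submitters' processing notes; for both, versions and settings are not given. The scale is not written in the file: the range of 1.11 to 13.4 and like medians on all arrays were read as log2. RMA makes the arrays' distributions alike, so a change common to all transcripts would not show. Scanner files and detection calls were not used here. Columns of the value table left unused numbered 0.

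Of 18913 probe sets, 15598 had 1 gene symbol, 870 had several and 2445 were not named in the annotation used; only the first were tested. Old symbols were updated for 1173 genes through RefSeq (GRCh38.p14), and 58 symbols were not listed there. For 66 genes with several probe sets the brightest was kept, which left 15529 genes.

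Each gene was fitted with limma 3.58.1 (lmFit and eBayes, R 4.3.3) on 6 group means over all 18 arrays, and a gene was called at p under 0.05 after Benjamini-Hochberg adjustment over all genes. Standard errors had a median of 0.220; with 3 arrays a side, exact permutation reaches p = 0.1 at the lowest. The fit was tested on simulated data. Named genes are AHR, IL4I1, the core targets, up to 20 genes in each direction with the largest change among called genes without overlap and with a brighter mean at or above the overall median, and from each list the called members with the lowest adjusted p, up to 4; small RNAs, olfactory receptors, receptor segments, antisense, LOC and unnamed transcripts were left out. Groups, lists and members were chosen with earlier results of these data known. For 6 of the 75 named genes a group mean was 4.51 or less, the lowest 1%; that limit was set with the values in view. Summed marker levels are log2 of summed linear values. Alternatives were the samples in the fit, the prior, the replicate block, a filter on dim genes, a size limit, quantile and median scaling, the mean of probe sets and leaving out each array. CYP1A1 was not analysed here.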

Additional observations from a re-analysis of the deposited data

How the results depend on the processing

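AHR was called under every alternative run, with changes of -2.07 to -1.82. The 240 calls (151 higher, 89 lower) became 17 (5 and 12) in a fit of the 6 arrays alone and 128 (71 and 57) with a change of at least 1. Without dim genes 139 fell. Without 1 array they numbered 82 to 205, with 54 to 139 higher and 28 to 70 lower. For shAHR1 without IL4I1 the 63 calls became 1 in the fit of its 6 arrays, 106 with a trended, robust prior, 101 without dim genes and 22 to 74 without 1 array. For shAHR2 the 195 became 39, then 109 with the size limit, and 75 to 168 without 1 array. Calls of the interaction numbered 4 with the trended, robust prior, 3 without dim genes and 0 to 3 without 1 array; between the hairpins they numbered 18, 29, 13 (quantile), 14 (median-centred) and 2 (replicate block). Labels give replicate numbers. Deviations of same-numbered IL4I1_shAHR1 and IL4I1_shC arrays correlated at 0.040, -0.104 and -0.061. IL4I1_shAHR1 replicate 2 correlated best with IL4I1_shC replicate 3 (0.119). Such values over all genes cannot exclude a batch shared by number. The median level of the mitosis list, centred per gene, was highest in replicate 3 of IL4I1_shC (-1.91, -1.43 and -0.39) and IL4I1_shAHR1 (-1.38, -2.01 and -1.13). The same held in C_shC and C_shAHR1, whereas in both shAHR2 groups replicate 2 was highest. The replicate block gave 281 calls. It ended the call of 1 of 75 named genes, CXCL3, and changed no other. Under all settings run, the named genes kept their direction except 4 near 0: IL4I1 reached 0.02 with quantile normalization and, without 1 array, -0.11 to 0.06 (0.06 without IL4I1_shAHR1 replicate 2, 0 without IL4I1_shC replicate 3). NQO1 ranged from -0.04 (without IL4I1_shC replicate 1) to 0.35. ALDH3A1 ranged from -0.39 to 0.15 (0.15 without IL4I1_shC replicate 1 or 3, 0.09 without IL4I1_shAHR1 replicate 1). NFE2L2 ranged from -0.13 to 0.06 (0.04 and 0.06 without replicate 2 of IL4I1_shAHR1 or IL4I1_shC). In the fit of 6 arrays 57 of the 75 named genes lost their call and 18 stayed on their side of the threshold. Among the 18 are IL4I1, CYP1A2, NQO1, ALDH3A1, SLC7A5 and NFE2L2, which the main fit did not call either. The fit of 6 arrays has fewer samples, and other causes were not tested. Fits without 1 array still use the arrays of the other groups. With 3 arrays a group, changes near the median standard error are not resolved.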

Other observations

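Genes outside the naming rule, chosen after their values were seen, add detail to the groups above. IL1RAP, the co-receptor for interleukin-1, measured 7.53, 7.46 and 7.11 in IL4I1_shC and 6.34, 6.77 and 6.16 in IL4I1_shAHR1, a log2 change of -0.94 ± 0.18 (limma adjusted p = 0.016). Fibroblast activation protein (FAP) and the metalloprotease ADAM12 changed by -0.89 and -0.87 with IL4I1 and by -0.84 and -0.82 without it. FAP also differed by -0.89 between shAHR1 and shAHR2 in IL4I1 cells. That difference was called with a trended, robust prior (limma adjusted p = 0.037) but not in the main fit. The IGF-axis genes PAPPA and IGFBP1 changed by -1.08 and -1.04 with IL4I1, and by 0.14 and -0.65 without it. Among the called rises were the sialyltransferases ST8SIA1 and ST8SIA4 (1.47 and 0.97), the ceramide synthase CERS6 (0.68), the fatty acid importer of mitochondria CPT1A (0.92), the WNT receptor ROR1 (1.57), the WNT secretion factor WLS (0.88) and beta-catenin (CTNNB1, 0.61).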
